A study of Homo sapiens with 20 samples.

Results

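MYC and its partners of the MAX network were followed in 10 established human lines of T-ALL, the T-cell form of acute lymphoblastic leukemia. Members were the probe sets whose platform annotation names only 1 of 9 genes: MYC, MYCN, MAX, MXI1, MXD1, MXD3, MXD4, MNT and MLX. That gave 17 of 22277 probe sets, which cover 8 of the 9 genes. All 3 probe sets of MXD4 also name a second gene, so MXD4 has no value here. The lines were RPMI8402, PF382, P12-ICHIKAWA, MOLT3, KOPTK1, HPB-ALL, DND41, CUTLL1, CCRF-CEM and ALL-SIL, and per the series' description all carry activating mutations of NOTCH1. For every line there was a DMSO (vehicle) array and an array after CompE, an inhibitor of gamma-secretase, given at 100 nM, both at 72 h. In 6 lines the CompE array's own label gives no dose, and the dose is that of the series' description. The medium named for DMSO differs from that for CompE in MOLT3, CCRF-CEM and P12-ICHIKAWA. In those DMSO labels the medium bears the name of the cell line RPMI8402, and whether this is a labelling slip is not known.

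MYC is a transcription factor that binds DNA as a dimer with MAX and drives genes of growth, nucleotide synthesis and ribosome production. MAX also pairs with the MXD proteins, MXI1 and MNT, which bind the same DNA sites and recruit the SIN3 corepressor, and so oppose MYC. MLX is a MAX-like protein that joins some of these antagonists to a parallel branch, in which it pairs with the nutrient sensors MLXIP (MondoA) and MLXIPL. Gamma-secretase releases the active part of NOTCH1, and MYC is a known direct target of NOTCH1 in T-ALL.

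The preferred site of MYC-MAX, MAX-antagonist and MLX dimers is the E-box CACGTG, which reads the same on both strands. It was searched in RefSeq windows (GRCh38.p14) of 300 bases, from 250 before to 50 after each start site. Of 8 members with windows, 3 had at least 1 match: MNT, MLX and MXD4. Among all 35116 windows 7.26% held it, or 8.77% of genes. The stretches below are shown because they hold the site in both measured members with a match and in 6 of the genes that MYC is known to activate, 4 that fell under CompE and 2 that did not pass the test. Each is 60 bases long and lies within the 250 bases before the start site, at a distance that differs between genes. Letters run 5′ to 3′ in the gene's direction, with the E-box in capitals.
MNT, chr17:2401221-2401280, minus strand: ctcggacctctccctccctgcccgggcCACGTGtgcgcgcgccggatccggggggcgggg
MLX, chr17:42567023-42567082, plus strand: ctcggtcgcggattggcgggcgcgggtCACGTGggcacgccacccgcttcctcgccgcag
SLC7A5, chr16:87869605-87869664, minus strand: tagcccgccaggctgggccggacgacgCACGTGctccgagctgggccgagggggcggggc
PRDX4, chrX:23667383-23667442, plus strand: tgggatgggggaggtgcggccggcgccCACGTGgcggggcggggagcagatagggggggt
HSPE1, chr2:197500319-197500378, plus strand: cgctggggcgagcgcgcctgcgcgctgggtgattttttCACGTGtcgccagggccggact
CDK4, chr12:57752477-57752536, minus strand: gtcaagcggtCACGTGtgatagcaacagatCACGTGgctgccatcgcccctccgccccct
LDHA, chr11:18394449-18394508, plus strand: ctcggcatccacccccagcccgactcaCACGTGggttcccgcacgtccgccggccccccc
APEX1, chr14:20455166-20455225, plus strand: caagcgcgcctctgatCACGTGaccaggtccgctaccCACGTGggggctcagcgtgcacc
A match is a description of these letters and not evidence of binding in these cells.

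Values are MAS5 signals on a linear scale, which the authors scaled so that the mean of each array without its top and bottom 2% is 250. Changes are CompE minus DMSO on the log2(signal + 16) scale, which understates the fold of dim genes. All 10 T-cell markers examined were above the filter on dim genes, a signal of about 32.5, while 0 of 6 myeloid, 0 of 3 erythroid and 0 of 4 epithelial markers were, and 2 of 4 fibroblast markers (COL1A1 and COL1A2) were. Summed T-cell marker signals ran from 9754 to 21857 in DMSO and from 9888 to 25283 in CompE, and myeloid ones from 50.3 to 164 and from 68.3 to 196. Those of 4 fibroblast markers lay between 34.3 and 160 in DMSO and between 60.9 and 188 in CompE. Of 5 B-cell markers, 2 passed the filter (CD79A and CD79B), and the sum ran from 142 to 2612 in DMSO and from 97.8 to 1974 in CompE; their part in the results was not tested. In KOPTK1 the 3'/5' ratio of the ACTB control probe sets, a measure of RNA degradation, stood at 3.32 (DMSO) and 9.76 (CompE). It lay between 1.02 and 1.99 on the other 18 arrays.

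MYC signal in DMSO was 3293 in PF382, 2911 in HPB-ALL, 2557 in KOPTK1, 2130 in CCRF-CEM, 2098 in DND41 and 1919 in ALL-SIL. It was lower in MOLT3 at 1054, CUTLL1 at 1002, P12-ICHIKAWA at 609 and RPMI8402 at 575. With CompE it was 960 in CCRF-CEM, 959 in HPB-ALL, 889 in P12-ICHIKAWA, 765 in ALL-SIL, 726 in CUTLL1, 584 in PF382, 572 in DND41, 529 in MOLT3, 163 in KOPTK1 and 142 in RPMI8402. In DMSO, 8 arrays lay above every CompE array, and the other 2, RPMI8402 and P12-ICHIKAWA, lay inside the CompE range. The order of the lines was not kept: KOPTK1 was among the 3 highest in DMSO and next to lowest in CompE, and P12-ICHIKAWA was next to lowest in DMSO and among the 3 highest in CompE. Single arrays per line and condition give no spread for these levels, so neighbours in the order cannot be separated.

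**Figure D1:**
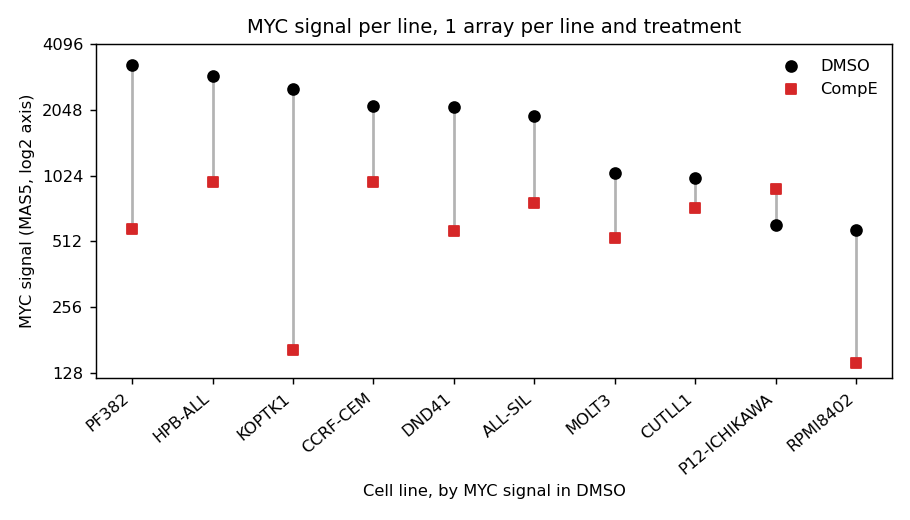
MYC signal (MAS5, log2 axis) in each line, ordered by the DMSO value; black circles are DMSO, red squares CompE, 1 array each, and grey lines join the arrays of a line. The signal is lower with CompE in 9 lines and higher in P12-ICHIKAWA, from 609 to 889.

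MYC fell by 1.50 ± 0.282 (SE, n = 10 pairs, limma adjusted p = 0.0107), the third largest fall among 7695 genes, of which 7.17% were called, 3.24% lower and 3.94% higher. With arrays centred on their medians the split of all calls was 340 lower and 116 higher, against 249 and 303. The mean signal of MYC went from 1815 ± 964 to 629 ± 295 (SD, n = 10). The change was -3.85 in KOPTK1, -2.46 in PF382, -1.90 in RPMI8402, -1.85 in DND41, -1.59 in HPB-ALL, -1.31 in ALL-SIL, -1.14 in CCRF-CEM, -0.97 in MOLT3, -0.45 in CUTLL1 and 0.53 in P12-ICHIKAWA. Without KOPTK1, the line with the high ACTB ratio, it was -1.24 (limma adjusted p = 0.00415). A covariate for the ACTB ratio gave -1.06, not past the threshold (limma adjusted p = 0.057, over all alternatives 0.00338 to 0.829). In RNA of whole cultures, fewer cells with MYC RNA and less of it per cell cannot be told apart.

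MYCN, the MYC relative best known from neuroblastoma, was bright in few lines and did not pass the test. Its brightest probe set read 668 in DMSO and 496 in CompE in RPMI8402, 454 and 591 in CCRF-CEM, and 143 and 122 in P12-ICHIKAWA. CUTLL1 stood at 51.8 and 31.6, and the other 6 lines lay between 5.11 and 43.8, near or below the filter. The change was 0.14 ± 0.163 (SE, n = 10 pairs, limma adjusted p = 0.636), higher in 5 lines and lower in 5. RPMI8402, which had the lowest MYC signal under both treatments, had the highest MYCN signal in DMSO. The other MYCN probe sets were dim or near the filter in all lines, with highest signals of 40.1 and 17.2.

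MAX, the shared dimer partner, was read by 5 probe sets with changes of different sign. The brightest of its 5 probe sets, 209332_s_at, ranged from 1214 to 2622 (median 1425) in DMSO and from 1268 to 2324 (median 1612) in CompE. It was higher with CompE in 8 of 10 lines, by 0.15 ± 0.0746 (SE, limma adjusted p = 0.221, 95% interval -0.01 to 0.31 before adjustment), and the groups overlapped. The probe sets 210734_x_at and 208403_x_at went the other way, by -0.48 ± 0.136 and -0.42 ± 0.165, each lower in 9 lines. In the fit over 19064 probe sets without a filter, where 2.04% were called, limma's adjusted p was 0.0758 and 0.186 for this pair, so neither passed, and of the 17 member probe sets only that of MYC did (limma adjusted p = 0.0212). In DND41 the 3 probe sets changed by 0.58, -1.48 and -1.38: 209332_s_at read 1309 in DMSO and 1962 in CompE, 210734_x_at 427 and 142, and 208403_x_at 255 and 87.8.

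The remaining MAX probe sets were at -0.16 ± 0.122 (209331_s_at) and 0.01 ± 0.166 (214108_at). Over the 10 lines the changes of 210734_x_at and 208403_x_at had r = 0.82 with each other, and r = -0.39 and -0.54 with the brightest probe set. These are descriptions over 10 lines whose points share arrays and scaling. Names ending in x_at mark probe sets whose probes can bind other transcripts as well, and the files do not say which MAX transcripts each one reads. With the mean of all 5 probe sets the change of MAX was -0.18 (limma adjusted p = 0.192, over the alternatives 0.0838 to 1), against 0.15 for the brightest.

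**Figure D2:**
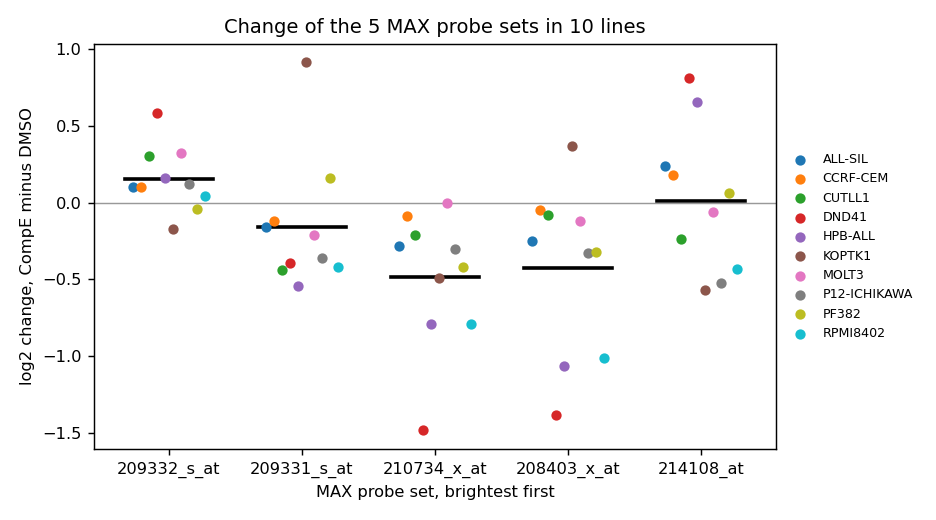
Log2 change (CompE minus DMSO) of the 5 MAX probe sets, brightest at the left; each point is 1 line and black bars are means over 10 lines. The brightest has a mean of 0.15 and both x_at probe sets -0.48 and -0.42, with DND41 at the top of the first and at the bottom of the others.

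Of the antagonists, MXI1 did not pass the test. Its signal ran from 502 to 2028 in DMSO (median 693) and from 412 to 2624 in CompE (median 608), and HPB-ALL and CUTLL1 were the highest lines under both treatments. The change was -0.11 ± 0.0827 (SE, n = 10 pairs, limma adjusted p = 0.438, 95% interval -0.28 to 0.07 before adjustment). It was lower in 8 lines, from -0.49 in MOLT3 to 0.37 in HPB-ALL.

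MXD1, the founding MXD family member, was dim. Its 1 probe set had a median signal of 12.8 in DMSO and 6.78 in CompE, and its highest value was 45.4, in DND41. It lay under the filter, and in the fit over all probe sets its change was -0.06 ± 0.166 (SE, limma adjusted p = 0.884).

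MXD3, an MXD protein found in dividing cells, had signals of 172 to 515 in DMSO (median 372) and of 216 to 863 in CompE (median 397). It was higher with CompE in 7 lines and lower in CUTLL1, DND41 and HPB-ALL. KOPTK1 went from 360 to 863 (1.22) and RPMI8402 from 245 to 498 (0.98), the 2 lines where MYC ended lowest. The mean change was 0.29 ± 0.147 (SE, n = 10 pairs), with limma adjusted p = 0.238 and a 95% interval of -0.02 to 0.60 before adjustment. It was 0.18 without KOPTK1 and 0.13 with a covariate for the ACTB ratio (limma adjusted p = 0.356 and 0.667, over all alternatives 0.164 to 1).

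MNT, the antagonist present in most cell types, had signals of 194 to 499 in DMSO (median 346) and of 243 to 612 in CompE (median 402). Again KOPTK1 moved most, from 288 to 612 (1.05), followed by DND41, from 209 to 361 (0.75). CCRF-CEM and HPB-ALL were at -0.15 and -0.05, and MOLT3 read 400 and 399. The mean change was 0.28 ± 0.113 (SE, n = 10 pairs), higher in 7 lines, with limma adjusted p = 0.139 and a 95% interval of 0.04 to 0.51 before adjustment. It was 0.19 without KOPTK1 and 0.08 with the ACTB covariate (limma adjusted p = 0.179 and 0.704, over all alternatives 0.104 to 0.977). The ACTB ratio was highest in KOPTK1, and its part in the higher MNT and MXD3 values there was not tested.

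None of the 6 tested members other than MYC was called in limma (0 of 6, against 7.17% of all genes), and of these 6 only MNT had an unadjusted p under 0.05, at 0.026. The count stayed 0 in all 20 alternatives.

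**Figure D3:**
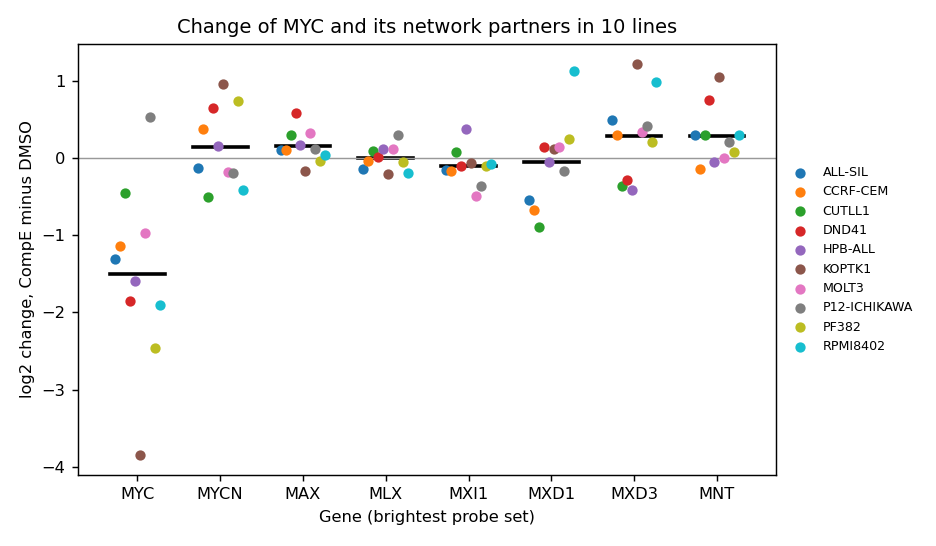
Log2 change (CompE minus DMSO) of the brightest probe set of each of 8 members; each point is 1 line and black bars are means over 10 lines. MYC has a mean of -1.50 and spreads from -3.85 to 0.53, and the means of the other members lie between -0.11 and 0.29.

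Whether the antagonists moved against MYC was asked within lines and across lines. Within a line, the change of the antagonist was taken from that of MYC on the same arrays. This difference was -1.78 ± 1.49 for MXD3, -1.77 ± 1.41 for MNT, -1.44 ± 1.51 for MXD1 and -1.39 ± 1.26 for MXI1 (SD, n = 10 lines). It was below 0 in 9 lines for MXI1, MXD3 and MNT and in 8 for MXD1. The MXD1 values here and across lines are readings of a probe set below the filter. Exact two-sided sign-flip permutation tests gave p = 0.00781 for MXI1, 0.0156 for MXD1, 0.00586 for MXD3 and 0.00391 for MNT (0.0104, 0.0156, 0.0104 and 0.0104 after Benjamini-Hochberg over the 4). Most of each difference is the fall of MYC: the own mean changes were 0.29 for MXD3, 0.28 for MNT, -0.06 for MXD1 and -0.11 for MXI1. A gene with no change in any line would give a mean difference of -1.50. These tests therefore cannot show whether an antagonist itself moved against MYC. MYC was lower and the antagonist higher in the same line in 6 lines for MXD3, 6 for MNT, 5 for MXD1 and 2 for MXI1. In the single lines, between 41.9% and 50.5% of all tested genes were lower with CompE.

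Across lines, an antagonist that moves against MYC would rise more where MYC fell more. Pearson's r of its change with that of MYC was -0.56 for MNT (permutation p = 0.0977), -0.43 for MXD3 (p = 0.214), -0.42 for MXD1 (p = 0.218) and -0.28 for MXI1 (p = 0.421), with n = 10 lines. Spearman's rho was -0.42, -0.26, -0.66 and -0.45 (permutation p = 0.232, 0.47, 0.0433 and 0.191, adjusted 0.271, 0.47, 0.101 and 0.267). Over all 7 members related to MYC the adjusted permutation p for r of these 4 lay between 0.228 and 0.421, so none passed. Without KOPTK1 and P12-ICHIKAWA, the lines farthest from the median MYC change, r was -0.17, -0.23, -0.68 and -0.10. The relations of MNT and MXD3 rest on KOPTK1: without it alone r was -0.09 and -0.01, and without P12-ICHIKAWA alone it was -0.66 and -0.60.

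**Figure D4:**
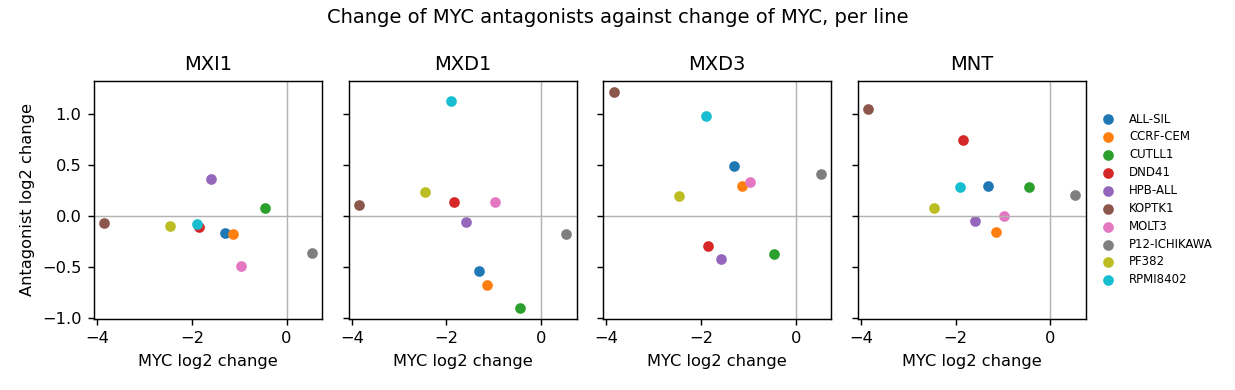
Log2 change of MXI1, MXD1, MXD3 and MNT against that of MYC, 1 point per line (CompE minus DMSO). KOPTK1, with MYC at -3.85, has the highest MXD3 (1.22) and MNT (1.05) values, and MXI1 stays between -0.49 and 0.37.

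For the other members, r with the change of MYC was 0.78 for MLX, 0.45 for MAX and -0.73 for MYCN (n = 10 lines, permutation p = 0.00772, 0.187 and 0.0116, adjusted 0.0407, 0.254 and 0.0407). Their rho was 0.78, 0.59 and -0.68 (permutation p = 0.0105, 0.082 and 0.0347, adjusted 0.0737, 0.144 and 0.101). Without the 2 farthest lines r was 0.44 for MLX, 0.33 for MAX and -0.64 for MYCN. The adjusted p of r rose above 0.05 on leaving out any of 7 lines for MYCN and any of 6 for MLX: CUTLL1, HPB-ALL, KOPTK1, MOLT3, P12-ICHIKAWA and PF382 for both, and ALL-SIL for MYCN. The lines with the highest MYCN changes were dim: KOPTK1 read 10.7 and 35.9, and PF382 20.2 and 43.8. In a limma fit of each gene's change on that of MYC, 0 of 7694 genes passed (0%), and 1269 had an unadjusted p under 0.05. The slope was -0.32 for MYCN and 0.11 for MLX, with limma adjusted p = 0.189 and 0.391.

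By the size of r over the 10 lines, the genes whose change was most like that of MYC were COX11 (0.92), EVL (0.91), COG5 (0.91), IK (0.90) and ANXA4 (0.90). The most opposite were CD6 (-0.94) and YPEL1, LONRF1, EMP3 and EML3 (each -0.90). Without KOPTK1 and P12-ICHIKAWA these values shrank to between 0.58 and 0.80 and between -0.51 and -0.74. In the DMSO arrays, the levels most like those of MYC were those of ZNF696 (0.91), RIGI (0.86), WSB2, ACVR1 and INPP1 (each 0.85). These are descriptions over 10 lines, picked from 7694 genes.

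MLX had signals of 538 to 861 in DMSO (median 729) and of 467 to 960 in CompE (median 709). Its change was 0.00 ± 0.0743 (SE, n = 10 pairs, limma adjusted p = 0.988, 95% interval -0.16 to 0.15 before adjustment), from -0.21 in KOPTK1 to 0.29 in P12-ICHIKAWA. Its other probe sets were at 0.11 ± 0.0801, -0.06 ± 0.101 and 0.24 ± 0.218. Of the wider network, 4 of 6 genes were tested, and 1 rose (25% called, against 7.17% of all genes). MLXIP (MondoA), the MLX partner that senses glucose metabolites, rose by 0.44 ± 0.12 (SE, limma adjusted p = 0.0393) in 9 of 10 lines, from a mean signal of 401 to 508. It passed in 8 of 20 alternatives, not with median centring (0.36, limma adjusted p = 0.0774), and averaging its probe sets gave 0.17 (limma adjusted p = 0.347, over the alternatives 0.0299 to 1). MLXIPL was at 0.45 ± 0.202, MGA, a large MAX partner, at -0.05 ± 0.109, and the MYC-binding ubiquitin ligase MYCBP2 at 0.05 ± 0.122.

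Of 4 tested genes known as targets of MLX and MondoA, 1 rose and 0 fell (25% called, against 7.17% of all genes). TXNIP, an inhibitor of glucose uptake, rose by 0.71 ± 0.167 (SE, limma adjusted p = 0.0212), higher in 9 lines. HK2, PFKFB3 and KLF10 were at -0.35 ± 0.113, 0.16 ± 0.146 and 0.05 ± 0.102 and did not pass. HK2 passed at -0.65 with the mean of its probe sets and at -0.42 with median centring (limma adjusted p = 0.0294 and 0.0485, over the alternatives 0.0294 to 1). TXNIP was lower in KOPTK1 alone, at -0.37, and averaging its probe sets gave 0.44 (limma adjusted p = 0.108, over the alternatives 0.0042 to 1). TXNIP passed in 14 of 20 alternatives, and not without the 3 lines of another medium label (0.76, limma adjusted p = 0.0595).

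Many genes that MYC is known to activate fell. Of 50 listed, 42 were tested. In limma 20 fell and 0 rose (47.6% called, against 7.17% of all genes). The median change of the 42 was -0.36, against 0.04 for all genes. The list was chosen with earlier results of these data known, so these shares are a description. Lower in all 10 lines were 11 of the 42, against 116 of 7695 genes. The 5 with the smallest adjusted p were C1QBP, a mitochondrial matrix protein (-0.96 ± 0.145), NME1, a nucleotide kinase (-0.78 ± 0.129), PRDX4, a peroxidase of the endoplasmic reticulum (-0.61 ± 0.104), MTHFD1, an enzyme of folate metabolism (-0.60 ± 0.102), and HSPE1, a mitochondrial chaperonin (-0.58 ± 0.0995). For these limma's adjusted p lay between 0.00448 and 0.00692.

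The genes with E-boxes printed above were chosen after their values were seen. The amino acid transporter SLC7A5 fell by 1.17 ± 0.232 and the cyclin-dependent kinase CDK4 by 0.42 ± 0.0898 (SE, limma adjusted p = 0.0123 and 0.015). LDHA, of glycolysis, was at 0.03 ± 0.0603, or -0.06 with quantile normalization and -0.04 with median centring, and the DNA repair enzyme APEX1 was at -0.18 ± 0.0773, and neither passed. An E-box lay in at least 1 window of 12 of 19 targets that fell and that have windows, and of 10 of 18 that were not called. So the share with the motif was 63.2% and 55.6%, a description with no test. Genes can enter such lists because of the motif, and whether that holds for this list was not tested.

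The mean change of these targets per line was -0.74 in HPB-ALL, -0.50 in DND41, -0.46 in ALL-SIL, -0.42 in RPMI8402, -0.37 in CUTLL1, -0.34 in PF382, -0.32 in MOLT3, -0.29 in CCRF-CEM, -0.27 in KOPTK1 and -0.12 in P12-ICHIKAWA. KOPTK1, with the largest fall of MYC, had 27 of 42 targets lower, and P12-ICHIKAWA, where MYC was higher, had 23. In the other 8 lines the count was between 34 and 40. Of all tested genes 45.7% were lower in KOPTK1 and 45.3% in P12-ICHIKAWA, within a range of 41.9% to 50.5% over the 10 lines. Over the 10 lines r between the changes of MYC and of the targets was 0.22 (permutation p = 0.531) and rho 0.22 (permutation p = 0.54), and r was 0.20 without KOPTK1 and P12-ICHIKAWA. Leaving out 1 line moved it from -0.19 (without P12-ICHIKAWA) to 0.56 (without KOPTK1). It was 0.51 with median centring (adjusted p = 0.126, over all alternatives 0.115 to 0.6).

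**Figure D5:**
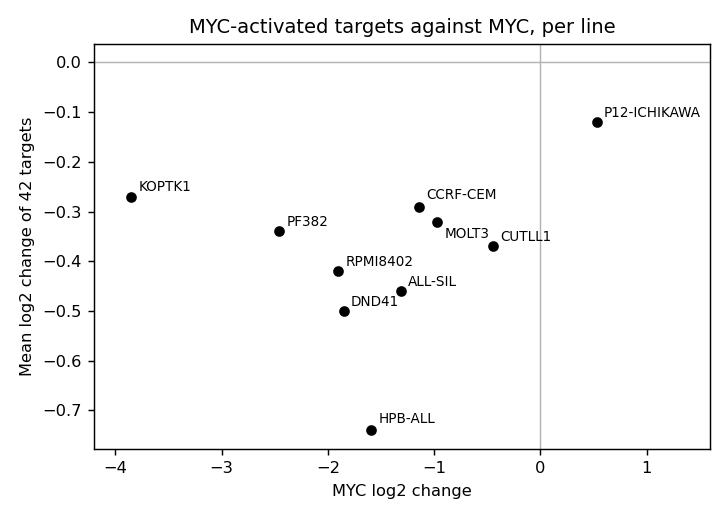
Mean log2 change of 42 MYC-activated targets against the log2 change of MYC, 1 labelled point per line (CompE minus DMSO). All 10 lines lie below 0 on the target axis, with HPB-ALL lowest at -0.74, and KOPTK1 at -0.27 although its MYC change is -3.85.

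In KOPTK1 the targets were split: C1QBP changed by -1.99, EIF4E by -1.43, PRDX3 by -1.27 and HSPE1 by -1.23, but POLR1B by 1.35, RCC1 by 0.65 and SLC7A5 by 0.47. These genes were picked for their values there, and the POLR1B probe set used has a name ending in x_at. Of the 20 targets called over all lines, 18 were lower in KOPTK1 and 15 in P12-ICHIKAWA. The call itself used the values of both lines, so these counts are not independent of it. The spread between targets in KOPTK1 was the largest of any line (SD 0.65, against 0.25 to 0.61), and its ACTB ratio was also the highest; the part of RNA quality was not tested. Without KOPTK1, 28 targets fell in place of 20, while over all genes 469 fell in place of 249. Without RPMI8402 the counts were 14 and 86.

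Of 14 tested genes that MYC is known to repress, 1 rose and 0 fell (7.14% called, against 7.17% of all genes), and their median change was 0.15, against 0.04 for all genes. NDRG1, a differentiation-linked gene, rose by 0.70 ± 0.152 (SE, limma adjusted p = 0.016) in all 10 lines, from 0.02 in P12-ICHIKAWA to 1.96 in HPB-ALL. With the ACTB covariate it was at 0.64 (limma adjusted p = 0.0624, over all alternatives 0.0131 to 0.977). KLF2 (0.57 ± 0.219), the kinase inhibitor CDKN1B (0.19 ± 0.0756), TSC22D3 (0.29 ± 0.125) and GADD45B (0.23 ± 0.105) did not pass. CDKN1B passed at 0.30 with the ACTB covariate and at 0.24 without KOPTK1 (limma adjusted p = 0.0452 and 0.0226, over the alternatives 0.0226 to 1). KLF2 was at 2.40 in KOPTK1 and 0.37 without it.

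Of 16 tested cofactors of MYC and parts of the SIN3 corepressor that the antagonists recruit, 2 fell and 0 rose (12.5% called, against 7.17% of all genes), with a median change of -0.03. RUVBL1, a helicase-like subunit of MYC-bound chromatin complexes, fell by 0.46 ± 0.0977 (SE, limma adjusted p = 0.015) in all 10 lines. SAP30, a subunit of the SIN3 complex, fell by 0.33 ± 0.0828 (limma adjusted p = 0.0284) in 9 lines. But averaging its probe sets gave -0.16 (limma adjusted p = 0.309, over the alternatives 0.0213 to 0.977), and it passed in 11 of 20 alternatives. The name of the brightest SAP30 probe set ends in x_at, so its probes can bind other transcripts as well. RUVBL2 was at -0.25 ± 0.084, the deacetylase HDAC2 at -0.24 ± 0.0823 and the chromatin remodeller EP400 at 0.33 ± 0.142, and these did not pass. RUVBL2 passed at -0.32 with median centring and at -0.27 without KOPTK1 (limma adjusted p = 0.0431 and 0.0394, over the alternatives 0.0394 to 0.977), and HDAC2 at -0.36 without the 3 lines of another medium label (limma adjusted p = 0.049, over the alternatives 0.049 to 0.977).

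Of 12 tested genes of MYC protein turnover, 1 rose and 0 fell (8.33% called, against 7.17% of all genes), with a median change of 0.09. HUWE1, a ubiquitin ligase that acts on MYC, rose by 0.31 ± 0.0762 (SE, limma adjusted p = 0.0264) in 9 lines. This is the reading of its brightest probe set, with a mean signal of 8614 in DMSO and 10655 in CompE. The name of that probe set ends in x_at, so its probes can bind other transcripts as well. Whether other transcripts add to this signal or to its rise was not tested. HUWE1 passed in 10 of 20 alternatives. The call was lost with median centring (0.24, limma adjusted p = 0.0835) and with quantile normalization (0.13, limma adjusted p = 0.0668), and without HPB-ALL, MOLT3 or RPMI8402, and the mean of its probe sets gave -0.11 (limma adjusted p = 0.377, over the alternatives 0.0255 to 0.977). FBXW7, the ligase that marks MYC and NOTCH1 for destruction, was at 0.39 ± 0.165, GSK3B, the kinase that prepares MYC for it, at -0.41 ± 0.165, PPP2R5A, a phosphatase subunit, at 0.21 ± 0.0885 and SKP2, a ubiquitin ligase subunit, at -0.20 ± 0.109, and none of these passed. SKP2 passed at -0.41 with the mean of its probe sets and at -0.28 without KOPTK1 (limma adjusted p = 0.0219 and 0.0487, over the alternatives 0.0219 to 1). Its brightest probe set also has a name ending in x_at. GSK3B passed at -0.52 without KOPTK1 (limma adjusted p = 0.0318, over the alternatives 0.0318 to 0.981).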

How the data were processed

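The authors deposited MAS5 signals, linear intensities, per the submitters' processing notes; sources used here do not give version or settings. All 20 arrays had been scaled to a trimmed mean of 250. Of 22277 probe sets, 62 controls were left out, and 19064 had 1 annotated gene, of which 19052 matched the RefSeq gene table by identifier. For each of 11963 genes the brightest probe set was used, and 7695 genes above the 40th percentile of mean log2 signal were tested. The change was fitted in limma 3.58.1 (R 4.3.3) on log2(signal + 16) with cell line as a fixed block and Benjamini-Hochberg adjustment over all genes at 0.05. Pairing rests on the line named in each array's title. A second fit covered all 19064 probe sets. Contrasts within lines used 1024 sign flips (smallest p 0.00195), relations 100000 permutations. The code was tested on simulated data. Whether separate cultures were used is not in the labels. The p-values rest on how 10 lines vary, and their number limits the precision. Members and lists were chosen with earlier results of these data known. Named list genes are up to 5 per list with the smallest adjusted p, TXNIP, all members, and the genes most like or unlike MYC by r (5 each), unless stated. ARRDC4, also in the rule, has no probe set naming it alone. Planned tests of MXD4 could not be run, so 4 antagonists were compared. Alternatives were other pseudocounts, scalings, filters, probe set rules and blocks, an ACTB covariate, and leaving out lines.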

Additional observations from a re-analysis of the deposited data

Results flagged for a closer look

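In 25 sets of 10 values (levels and changes of the members and the mean change of targets), 1 value stood far from the rest. It was that of the brightest MAX probe set, 209332_s_at, in KOPTK1 in DMSO, at 11.37 on the log2(signal + 16) scale. The next highest line was at 10.73, a gap of 0.58 of the whole range, above Dixon's critical value for 10 samples. On 209331_s_at, 210734_x_at and 208403_x_at the same array read 167, 94.6 and 47.8, the lowest of the 10 DMSO arrays on each. On 214108_at it read 92.3, the highest. The ACTB ratio of this array was 3.32, and its part was not tested. Chance marks about 1 in 20 such sets.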

How the results depend on the processing

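Of 20 alternatives, MYC stayed below 0 in all and past the threshold in 18. Without a replicate block it was at -1.50 (adjusted p = 0.829), 0 targets and 0 member probe sets were called, and with the ACTB ratio as a covariate MYC was at -1.06 and 0 member probe sets were called, against 1. Leaving out 1 line gave 0 to 1 member probe sets, 0 without DND41, HPB-ALL or RPMI8402, and between 14 and 28 falling targets. Over all genes it gave 85 to 469 lower and 96 to 562 higher calls. For genes that follow MYC it gave 0 to 2 calls, 2 without P12-ICHIKAWA. MYC minus MXD1 was at -1.35 with pseudocount 1 (adjusted p = 0.0957). The relation of MYCN with MYC lost its call with pseudocount 1 (-0.72), pseudocount 64 (-0.63), quantile normalization (-0.65), median centring (-0.64), without the 3 lines of another medium label (-0.81) and with the mean of probe sets (-0.18); leaving out 1 line gave -0.85 to -0.57. That of MLX lost it with pseudocount 64 (0.76), quantile normalization (0.68), without the 3 lines (0.60) and with the mean of probe sets (0.41). For MLX, median centring gave 0.92 (adjusted permutation p = 0.00273, over the alternatives 0.00273 to 0.401), and leaving out 1 line gave 0.63 to 0.84. MAX was at -0.14 with the mean of probe sets, at 0.70 with median centring and from 0.11 to 0.76 with 1 line left out, called without DND41. MXI1 was at 0.05 with median centring and 0.29 without the 3 lines. Targets against MYC were at -0.41 without the 3 lines and from -0.19 to 0.56 with 1 line left out. Their causes were not tested.

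Signs of changes also turned, and none of the turned values was called. Among these genes and probe sets only HUWE1 was called in the main fit. With quantile normalization MLX was at 0.01, LDHA at -0.06 and MAX probe set 214108_at at -0.11. With median centring MYCBP2 was at -0.03, KLF10 at -0.02, LDHA at -0.04 and 214108_at at -0.06. With the ACTB covariate MYCN was at -0.07, MLX at 0.02 and MYCBP2 at -0.13. Without the 3 lines MGA was at 0.06, LDHA at -0.05 and MYCN probe set 211377_x_at at -0.02. With the mean of probe sets MAX was at -0.18, MLX at 0.07, HUWE1 at -0.11 and GADD45B at -0.01. Leaving out 1 line gave -0.04 to 0.02 for MLX, -0.08 to 0.08 for 214108_at, -0.03 to 0.13 for MYCBP2, -0.11 to 0.03 for MGA and 0.00 to 0.05 for LDHA. Signals near 0, as for MXD1 and most MYCN readings, limit what can be read.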
